A study of Mus musculus with 6 samples.

Results

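Effector and memory transcription factors were measured in resting CD8 T cells as a set of 10 genes, Tbx21, Eomes, Id2, Prdm1, Zeb2, Tox, Zfp683, Bhlhe40, Irf4 and Batf, chosen by symbol. All 10 were found among the 55450 genes of the table, and all 10 had enough counts to be tested. The cells were naive CD8 T cells sorted from mouse lymph nodes as negative for Ly6C and CXCR3, surface proteins that many memory-like CD8 T cells carry. The 3 WT libraries came from C57BL/6 mice and the 3 CD103KO libraries from mice deficient for Itgae, which encodes the CD103 integrin chain. The labels used here give no age or sex and name no treatment, and they do not say whether a library holds 1 animal or several, so that a p-value sets a difference only against the spread of these samples, which may in part be technical.

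In a T cell that has met antigen, these factors set the direction of differentiation. T-bet (Tbx21) and EOMES are related T-box proteins that drive cytotoxic and memory genes, ID2 blocks the DNA binding of E proteins, and BATF and IRF4 act together early after activation of the T cell receptor. BLIMP-1 (Prdm1), its relative HOBIT (Zfp683), ZEB2 and BHLHE40 are linked to terminal effector or tissue-resident fates, and TOX to thymic development and to T cell exhaustion. Naive cells are instead held at rest by factors such as TCF-1 (Tcf7), whose level falls as effector cells form.

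Of the 10 factors, 0 passed an adjusted p of 0.05 in CD103KO against WT (edgeR quasi-likelihood test over 13470 genes, of which 0.223% passed). DESeq2 and limma-voom also called 0 of the 10, against 0.822% and 0.215% of the genes they tested. At an unadjusted p under 0.05 edgeR gave 2 of the 10, Id2 and Batf, both lower in CD103KO, where 8.73% of all tested genes reached that level in either direction and 4.2% reached it downward. The median log2 fold change of the 10 was 0.05, with 6 positive and 4 negative, beside a median of -0.0025 over all tested genes. The groups did not overlap for 1 of the 10, Batf, a property of 14.2% of all tested genes, and of 7.36% counting only those lower in CD103KO.

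Libraries held between 68292475 and 94347034 counts in all, which made 1 count worth 0.0104 to 0.0147 CPM (counts scaled to library size, with TMM factors). The targeted gene Itgae stood at 65.6 ± 3.90 CPM in CD103KO, against 482 ± 19.3 CPM in WT (SD, n = 3 each; adjusted p = 4.06e-08, edgeR). The CD8 chains Cd8a and Cd8b1 were at 1438 to 1506 and 1679 to 1784 CPM over the 6 libraries. Some libraries stood apart. WT replicates 1 and 2 held 66.9 and 79.7 CPM of Xist, an X-inactivation RNA, and 0 counts of the Y-linked Ddx3y. The other 4 libraries had at most 0.0272 CPM of Xist and 47.8 to 56.2 CPM of Ddx3y. This is the pattern of female cells in WT replicates 1 and 2 and of male cells in the other 4 libraries. Sex, which the labels do not give, thus appeared unequal between the groups. Its part in a difference between CD103KO and WT cannot be fully told apart from that of genotype. WT replicate 3 also held 34.9 CPM of the effector chemokine gene Ccl5, against 2.91 to 6.46 CPM in the other libraries, and 2.34 CPM of the granzyme gene Gzmk, against 0.0836 to 0.504 CPM. For this reason each factor is also given with a term for Xist reads, which in effect sets CD103KO against WT replicate 3. In bulk RNA, fewer cells of a type and less RNA per cell cannot be told apart.

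Per kilobase of merged exons, averaged over the 6 libraries, the factors ran from Id2 at 26.2 to Zeb2 at 0.0146 CPM per kb. Between them came Batf (19.6), Tox (12.8), Eomes (8.77), Irf4 (2.7), Tbx21 (1.39), Zfp683 (1.17), Bhlhe40 (0.205) and Prdm1 (0.148). For comparison, Tcf7 stood at 499 CPM per kb and the naive-state factor Bach2 at 8.65, just under Eomes. The ranges over the 6 libraries overlapped between neighbours at 3 places in this order: Id2 with Batf, Tbx21 with Zfp683, and Bhlhe40 with Prdm1. The order was the same when the longest protein-coding transcript replaced merged exons, although Bhlhe40 and Prdm1 then no longer overlapped. By merged exons, the resting cells thus held 4 of these factors at levels above 8 CPM per kb and 3 below 0.3 CPM per kb.

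**Figure D1:**
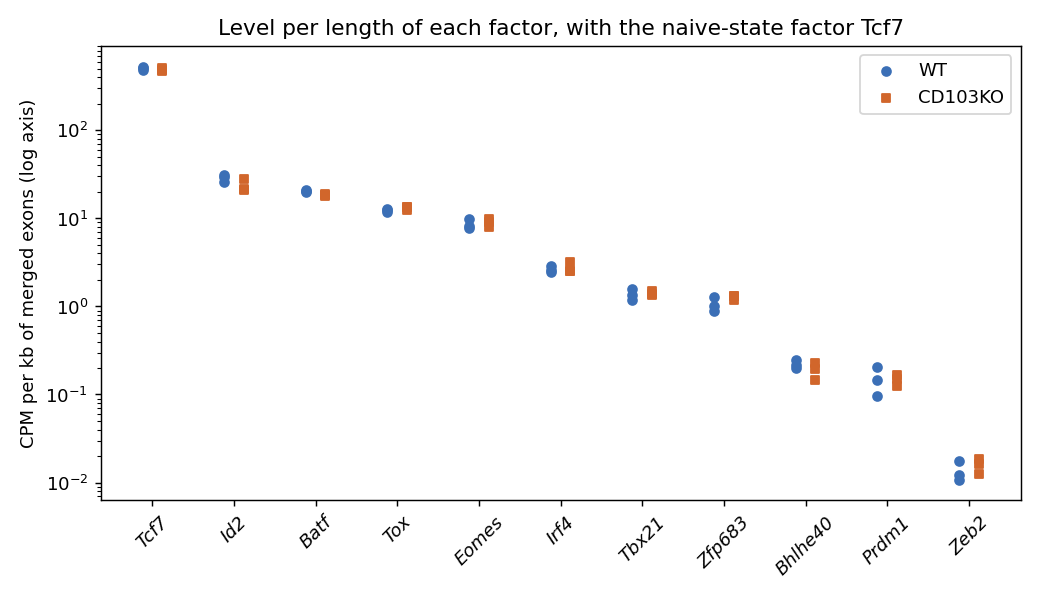
Level of each factor per kilobase of merged exons on a log axis, with Tcf7 at the left for scale; circles are the 3 WT libraries and squares the 3 CD103KO libraries. The factors fall from 26.2 CPM per kb for Id2 to 0.0146 for Zeb2, and within each factor the libraries of both groups lie close together on this scale.

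The T-box factors are encoded by Tbx21 (ENSMUSG00000001444.2, chromosome 11, 97098071 to 97115331, GRCm38, minus strand) and Eomes (ENSMUSG00000032446.14, chromosome 9, 118478212 to 118486132, plus strand). Tbx21 lies on the chromosome of Itgae, 24 Mb away. Tbx21 was at 3.90, 3.39 and 2.98 CPM in WT replicates 1, 2 and 3, from 237 to 325 counts, and at 3.32, 3.44 and 3.77 CPM in CD103KO replicates 1, 2 and 3. The CD103KO values lay inside the WT range, and WT replicate 3 was the lowest library. The log2 fold change was 0.04 (SE 0.13, adjusted p = 0.958, edgeR), and the 95% interval ran from a level 15.9% lower to 25.0% higher. With the term for Xist reads the value was 0.24 (SE 0.17). Eomes was at 32.1, 33.9 and 40.6 CPM in WT and 41.1, 33.1 and 37.8 CPM in CD103KO. Its groups overlapped almost fully, and the log2 fold change, 0.07 (SE 0.10, adjusted p = 0.871, edgeR), was -0.12 with the term for Xist reads. WT replicates 1 and 2, the libraries with Xist reads, were low for Eomes, as was CD103KO replicate 2, whereas WT replicate 3 lay beside CD103KO replicate 1 at the top.

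Cxcr3, a T-box target gene whose protein was part of the sort gate, was at 3.18, 3.30 and 7.66 CPM in WT and 8.80, 5.51 and 6.38 CPM in CD103KO. The 3 libraries highest for Eomes (CD103KO replicate 1, WT replicate 3 and CD103KO replicate 3) were also the 3 highest for Cxcr3, in the same order, an ordering chosen after the values were seen. Tbx21 did not share that order. Ly6c2, the other gate gene with appreciable RNA, averaged 22.8 ± 7.25 CPM over WT and 35.8 ± 3.94 CPM over CD103KO (SD, n = 3), and its log2 fold change, 0.65 without passing (adjusted p = 0.430, edgeR), was 0.22 with the term for Xist reads. It passed without WT replicate 3 (0.93, adjusted p = 0.0239, edgeR) and with no filter on low counts (adjusted p = 0.0323, edgeR). Without WT replicate 3, only the WT libraries with Xist reads remained, so the pattern of sex and genotype cannot be told apart in that fit. Ly6c1 was at 0.160 to 0.428 CPM in WT and 0.627 to 1.08 CPM in CD103KO and did not pass with edgeR (adjusted p = 0.304), though it did with DESeq2 (0.0400). All 3 gate genes had positive log2 fold changes, although Cxcr3 was at -0.15 with the term for Xist reads, and their summed level was at most 38.8 CPM in WT and 39.3 to 45.9 CPM in CD103KO. Their part in the levels of the factors was not tested.

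Id2 (ENSMUSG00000020644.9, chromosome 12, 25093799 to 25097140, minus strand) encodes an inhibitor that pairs with E proteins and keeps them off the sequence CANNTG, the E box. It was at 76.3, 72.3 and 62.9 CPM in WT and at 68.5, 52.7 and 50.8 CPM in CD103KO, from 3591 to 6925 counts. CD103KO replicates 2 and 3 were the lowest libraries, but CD103KO replicate 1 lay above WT replicate 3, so the groups overlapped. The log2 fold change of -0.30 (SE 0.11) had an unadjusted p of 0.0275 and an adjusted p of 0.497 (edgeR), with an interval from 32% to 2.84% lower. It was -0.45 without CD103KO replicate 1 (adjusted p = 0.0687, edgeR) and -0.13 with the term for Xist reads.

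Id3, the paralog of Id2 that is typical of naive and memory-precursor cells, had a difference of the opposite sign in these libraries. It was at 34.4, 31.1 and 33.4 CPM in WT and 36.4, 45.3 and 50.3 CPM in CD103KO, so that every CD103KO library was above every WT library. With edgeR it did not pass (log2 fold change 0.42, SE 0.11, adjusted p = 0.310), and with DESeq2 it did (adjusted p = 0.00743). Without CD103KO replicate 1 it also passed with edgeR (0.54, adjusted p = 0.0262), as it did with no filter on low counts (adjusted p = 0.0288, edgeR). With any other library left out it did not pass (adjusted p = 0.293 to 0.968, edgeR). With the term for Xist reads the log2 fold change of Id3 was 0.40 (SE 0.16). The ratio of Id2 to Id3 CPM was 2.22, 2.33 and 1.89 in WT and 1.88, 1.16 and 1.01 in CD103KO, given as a description because it was formed after both genes were seen. CD103KO replicates 2 and 3 set this ratio apart, while CD103KO replicate 1 matched WT replicate 3. The E protein gene Tcf3, whose product is a partner of both inhibitors, was at 110 to 112 CPM in WT and 113 to 120 CPM in CD103KO (log2 fold change 0.07, adjusted p = 0.656, edgeR).

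The promoters of Id2 and Batf are shown because these were the factors with an unadjusted p under 0.05. Each runs from 250 bases before to 50 bases after the RefSeq start site, 5′ to 3′ on the strand of the gene, with E boxes (CANNTG, either strand) in capitals. The Id2 window is chr12:25096043-25096342 (GRCm38.p6, minus strand) and holds 1 E box, and the Batf window is chr12:85686470-85686769 (plus strand) and holds 3.
Id2: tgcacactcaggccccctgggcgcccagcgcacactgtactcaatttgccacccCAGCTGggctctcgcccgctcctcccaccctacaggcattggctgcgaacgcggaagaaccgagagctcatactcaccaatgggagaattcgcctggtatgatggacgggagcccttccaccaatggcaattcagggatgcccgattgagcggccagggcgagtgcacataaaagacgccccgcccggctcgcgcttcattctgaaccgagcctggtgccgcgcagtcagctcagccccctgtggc
Batf: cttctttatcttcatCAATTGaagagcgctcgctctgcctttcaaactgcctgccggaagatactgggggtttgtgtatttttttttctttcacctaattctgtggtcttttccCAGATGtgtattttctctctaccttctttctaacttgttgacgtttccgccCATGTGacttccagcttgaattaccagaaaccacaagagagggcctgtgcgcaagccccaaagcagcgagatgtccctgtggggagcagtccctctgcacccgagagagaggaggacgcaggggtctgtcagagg
An E box occurs in 72.3% of the 32851 RefSeq promoter windows of this length, so its presence does not distinguish these genes. RefSeq windows were found for 7 of the 10 factors, not for Tox, Zfp683 and Bhlhe40, and Zeb2 has 4 of the 10 windows. Of letters that other factors of the set bind, TGANTCA (BATF with JUN proteins, in 7.81% of all windows) occurs 48 bases before the start of Prdm1 and at 2 places in 1 window of Zeb2. The IRF element (a GAAA run repeated after any 2 letters, in 3.44%) occurs in the Eomes window, and CAGGTG (ZEB proteins, 20.2%, itself an E box) in those of Prdm1 and Tbx21. CACGTG (BHLHE40, also an E box) and AGGTGTGA (T-box proteins) occur in none of the 10 windows, against 7.15% and 1.28% of all windows.

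Batf (ENSMUSG00000034266.6, chromosome 12, 85686669 to 85709087, plus strand) encodes an AP-1 family protein induced by T cell receptor signals. It was at 29.0, 28 and 29.8 CPM in WT and 25.5, 26.1 and 26.7 CPM in CD103KO, from 1781 to 2676 counts. Every CD103KO library was below every WT library, and the spread within each group was small, with coefficients of variation of 3.23% and 2.31% where counting error alone gives 2.04% and 2.30%. The log2 fold change was -0.15 (SE 0.06, unadjusted p = 0.0268, adjusted p = 0.497, edgeR), a level 9.66% lower with an interval from 17.2% to 1.46% lower. It was -0.19 with the term for Xist reads and -0.17 to -0.12 with each library left out, always without passing.

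**Figure D2:**
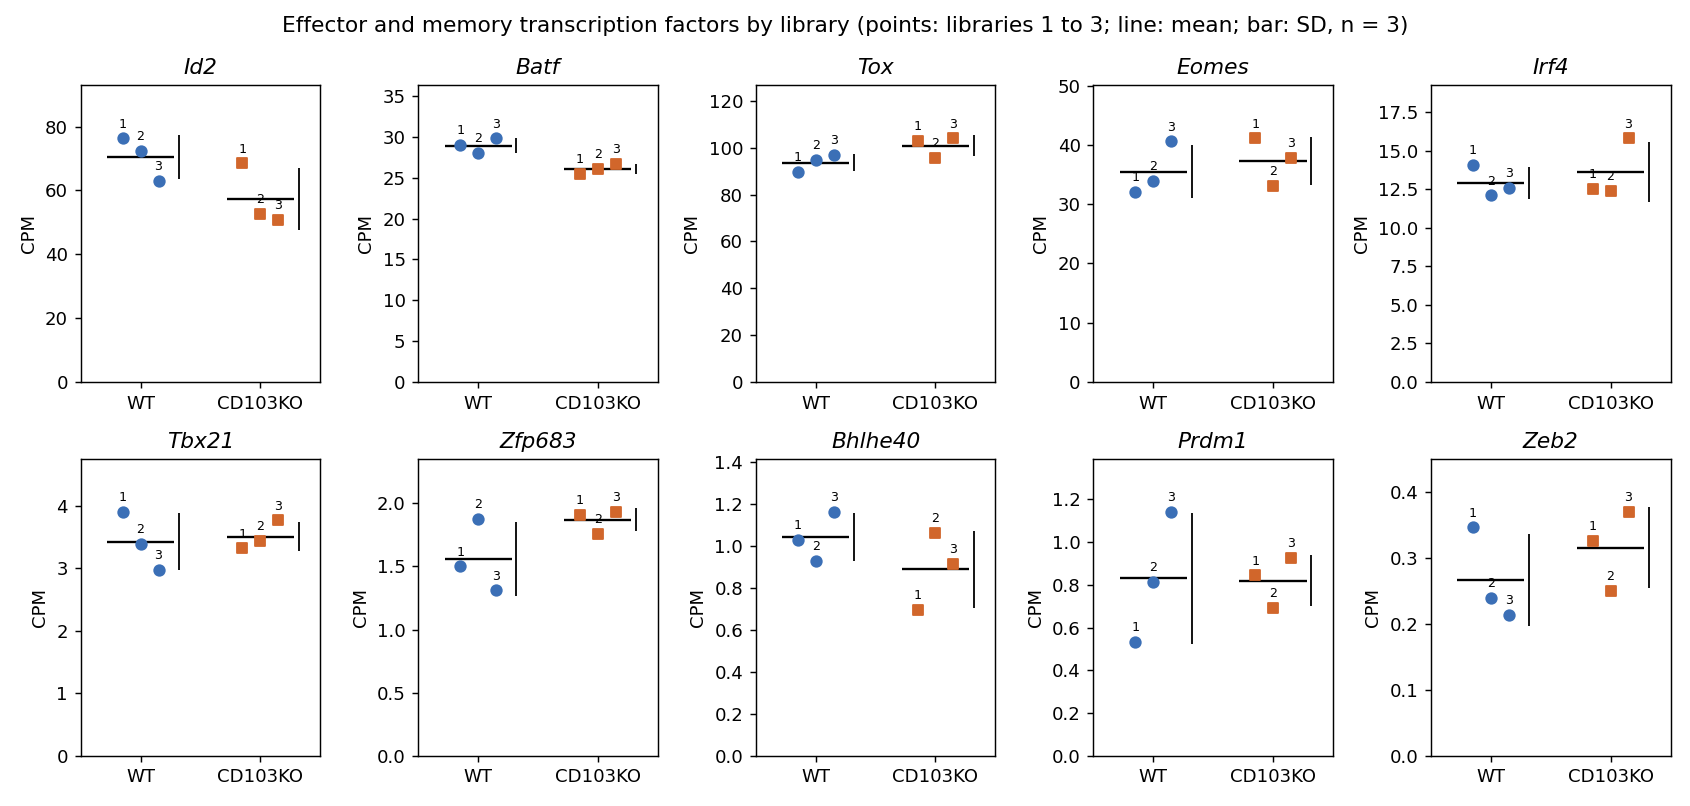
CPM of each factor by library, with 1 panel per factor and the vertical axis starting at 0; numbered circles and squares are replicates 1 to 3 of WT and CD103KO, horizontal lines are means and vertical bars SDs (n = 3). Only for Batf do the groups not overlap, with CD103KO at 25.5 to 26.7 CPM and WT at 28 to 29.8 CPM.

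Irf4 (ENSMUSG00000021356.10, chromosome 13, 30749226 to 30766976, plus strand) encodes the interferon regulatory factor that binds DNA jointly with BATF. It was at 14.1, 12.1 and 12.6 CPM in WT and 12.5, 12.4 and 15.8 CPM in CD103KO. CD103KO replicate 3 was the highest library and the other CD103KO libraries lay among the WT values, and the log2 fold change, 0.07 (SE 0.11, adjusted p = 0.882, edgeR), was -0.06 without CD103KO replicate 3 and 0.11 with the term for Xist reads. Bhlhe40 (ENSMUSG00000030103.11, chromosome 6, 108660629 to 108666925, plus strand), a repressor that supports cytokine output and mitochondrial fitness of resident T cells, was at 1.03, 0.930 and 1.16 CPM in WT and 0.695, 1.06 and 0.913 CPM in CD103KO. These values rest on 51 to 92 counts, the groups overlapped, and the log2 fold change was -0.23 (SE 0.22, adjusted p = 0.800, edgeR) with an interval from 39.7% lower to 21.4% higher. With the term for Xist reads it was -0.38 (SE 0.31). Irf4 is also a gene of B cells, and so is Prdm1 in plasma cells. B cell and plasma cell markers differed between the groups. With edgeR 3 of 14 tested passed, all higher (Cd79a, Ms4a1 and Fcer2a), against 0.223% of all tested genes. With DESeq2 7 passed, against 0.822% of the genes it tested, and 12 of the 14 were highest in CD103KO replicate 3. Cd79a, a component of the B cell receptor, was at 0.710 to 0.818 CPM in WT and 2.14 to 3.08 CPM in CD103KO, and the summed level of the 13 markers other than Xbp1 was 3.57 to 4.49 CPM in WT and 9.68 to 15.9 CPM in CD103KO. Xbp1, which T cells also express, was at 31.9 to 33.0 CPM in WT and 29.1 to 30.7 CPM in CD103KO. With the term for Xist reads the log2 fold changes of Cd79a, Ms4a1 and Fcer2a were 1.63, 2.10 and 2.48, against 1.74, 2.28 and 2.58 without it, and none of these 3 passed (adjusted p = 0.252, 0.496 and 0.238, edgeR). A fit of only the libraries without Xist reads gave the same 3 log2 fold changes. Its only WT library is WT replicate 3, so it is the same contrast and not a separate check. Ms4a1 also did not pass with limma-voom (adjusted p = 0.0755) or without CD103KO replicate 2 or any 1 of the WT libraries (adjusted p = 0.0579 to 0.149, edgeR). No marker of the 14 was at 0 in the series, and their part in the Irf4 and Prdm1 levels was not tested.

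The related zinc finger repressors BLIMP-1 and HOBIT, which together maintain tissue-resident lymphocytes, are encoded by Prdm1 (ENSMUSG00000038151.13, chromosome 10, 44437177 to 44528501, minus strand) and Zfp683 (ENSMUSG00000049410.8, chromosome 4, 134053838 to 134058996, plus strand). Prdm1 was at 0.534, 0.815 and 1.14 CPM in WT and 0.844, 0.690 and 0.926 CPM in CD103KO, from 40 to 91 counts. It varied most within WT of all 10 factors (coefficient of variation 36.8%, against 12% from counting error), with WT replicate 3 highest and WT replicate 1 lowest. Its log2 fold change, -0.02 (SE 0.29, adjusted p = 0.989, edgeR), became 0.27 without WT replicate 3 and 0.09 without CD103KO replicate 2. It was -0.48 with the term for Xist reads, so no direction was settled. Zfp683 was at 1.5, 1.88 and 1.31 CPM in WT and 1.91, 1.76 and 1.93 CPM in CD103KO. Here WT replicates 1 and 3 were below every CD103KO library and WT replicate 2 lay among them. The log2 fold change was 0.25 (SE 0.17, adjusted p = 0.711, edgeR) and 0.51 with the term for Xist reads (SE 0.23, adjusted p = 0.682).

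Zeb2 (ENSMUSG00000026872.17, chromosome 2, 44983632 to 45117395, minus strand), a transcriptional repressor that promotes terminal effector differentiation downstream of T-bet, was the scarcest factor per length. It was at 0.347, 0.240 and 0.214 CPM in WT and 0.327, 0.250 and 0.370 CPM in CD103KO, from only 17 to 28 counts. The coefficients of variation, 26.4% and 19.4%, were close to the 21.3% and 20.9% of counting error alone. Its log2 fold change, 0.25 (SE 0.33, adjusted p = 0.863, edgeR), had an interval from 29.2% lower to 99.6% higher, so a difference of moderate size was not detectable at this depth, and with the term for Xist reads it was 0.56 (SE 0.49). An antisense transcript, Zeb2os, overlaps Zeb2 with 9 counts in the 6 libraries together, and Gm33460 overlaps Eomes with 11; the strand setting of the counting is not given in the sources used here.

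Tox (ENSMUSG00000041272.11, chromosome 4, 6686353 to 6991557, minus strand), an HMG-box factor, was the member with the most counts, 6522 to 9065 per library. It was at 89.6, 94.7 and 96.9 CPM in WT and 103, 95.7 and 104 CPM in CD103KO. CD103KO replicate 2 lay between WT replicates 2 and 3, and the other CD103KO libraries were above all WT libraries. The log2 fold change was 0.11 (SE 0.05, unadjusted p = 0.0508, adjusted p = 0.577, edgeR), with an interval from 0.032% lower to 16.1% higher. It was 0.06 with the term for Xist reads.

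**Figure D3:**
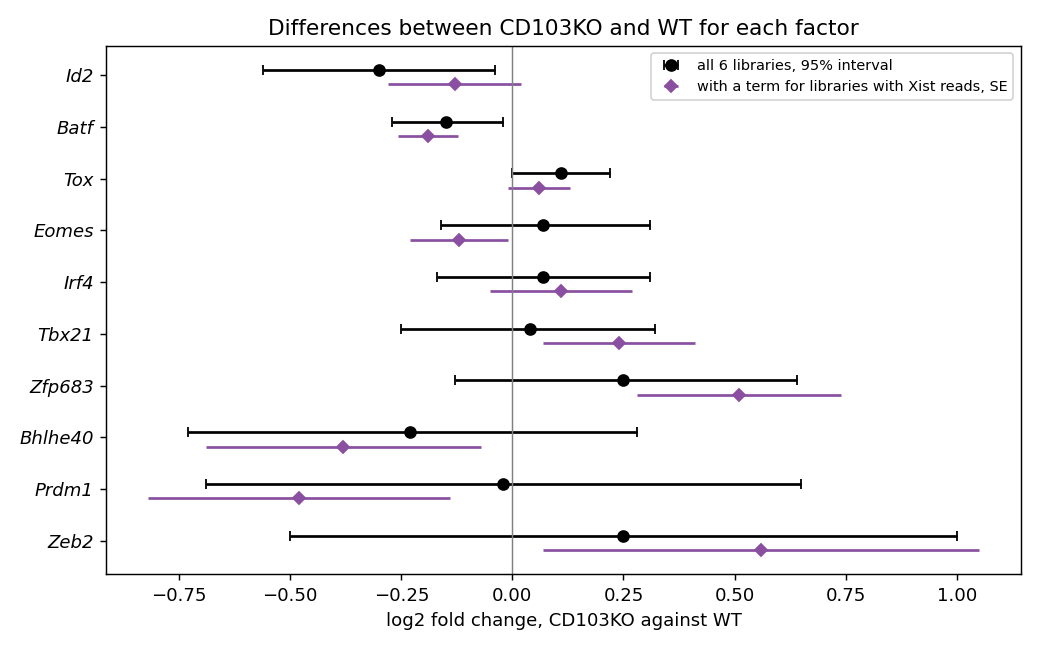
Log2 fold change of CD103KO against WT for each factor, from the most to the least abundant per length; circles with capped bars are values and 95% intervals from all 6 libraries, and diamonds with plain bars are values and SEs with a term for libraries with Xist reads. Intervals widen toward the scarce factors, and those of Id2 and Batf lie below 0. The diamonds of Eomes (-0.12) and Prdm1 (-0.48) lie lower than the circles (0.07 and -0.02). Those of Bhlhe40, Tox and Batf also lie lower than their circles, and those of the other factors lie higher.

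Genes tied to the factors were described by lists chosen for their known function, with earlier results of these data known. Over all tested genes, 8.73% reached an unadjusted p under 0.05 with edgeR, 4.2% downward, and the groups did not overlap for 14.2%. Of 14 tested partners, paralogs and antagonists, 0 passed with edgeR, 1 member on each side reached an unadjusted p under 0.05, and DESeq2 called Id3 alone. The lower one was Junb, an AP-1 partner of BATF, with 96.4 ± 3.08 CPM on average for WT and 84.3 ± 9.66 CPM for CD103KO (SD, n = 3; adjusted p = 0.501, edgeR), for which CD103KO replicate 1 (95.5 CPM) lay among the WT libraries. Without CD103KO replicate 1 its log2 fold change went from -0.19 to -0.29 (adjusted p = 0.0352, edgeR). Id2, Id3 and Junb thus had in common that CD103KO replicates 2 and 3 stood farther from WT than CD103KO replicate 1. The list median was 0.03.

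Of 12 naive-state transcription factors, 0 passed with edgeR, DESeq2 or limma-voom, and 2 were lower at an unadjusted p under 0.05 (list median -0.05). Klf2, a homing and quiescence factor, was at 347 ± 23.5 and 314 ± 11.7 CPM, and Bcl6, a repressor that opposes BLIMP-1, at 19.7 ± 0.731 and 17.6 ± 1.08 CPM (SD, n = 3 each; adjusted p = 0.497 and 0.541, edgeR). The groups overlapped for Klf2 and not for Bcl6. With the term for Xist reads, the log2 fold change of Klf2 went from -0.15 to -0.04 and that of Bcl6 from -0.16 to -0.13. Of 9 tested tissue residency genes, 0 passed with any of the 3 tools and 3 (Ccr7, Ahr and the chemokine receptor gene Cxcr6) were lower at an unadjusted p under 0.05 (median -0.12). Ccr7, a lymph node homing receptor that BLIMP-1 and HOBIT repress, was at 486 ± 5.96 and 443 ± 6.37 CPM, and Ahr, an environmental sensor of resident cells, at 3.27 ± 0.432 and 2.44 ± 0.424 CPM (SD, n = 3 each; adjusted p = 0.303 and 0.506, edgeR). The same term took Ccr7 from -0.14 to -0.15 and Ahr from -0.42 to -0.19.

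Of 26 effector and memory genes listed for their ties to the factors, 24 were tested, 0 passed with any of the 3 tools, and 2 were higher at an unadjusted p under 0.05 (median 0.05). These were Ly6c2 and Il2rb, the receptor chain for IL-2 and IL-15, which T-bet and EOMES induce. Il2rb was at 265, 241 and 248 CPM in WT and 262, 295 and 317 CPM in CD103KO (log2 fold change 0.21, adjusted p = 0.437, edgeR), with CD103KO replicate 1 again among the WT libraries. WT replicate 3 was the highest library for 9 of the 24 genes, Ccl5, Gzmk, Ifng, Fasl and Ccl3 among them, and CD103KO replicate 3 for 6. Of the 10 factors, WT replicate 3 was the highest library for 3 (Prdm1, Bhlhe40 and Batf) and the lowest for 3 (Tbx21, Zfp683 and Zeb2). The factors were thus not all highest in the library with the most Ccl5.

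**Figure D4:**
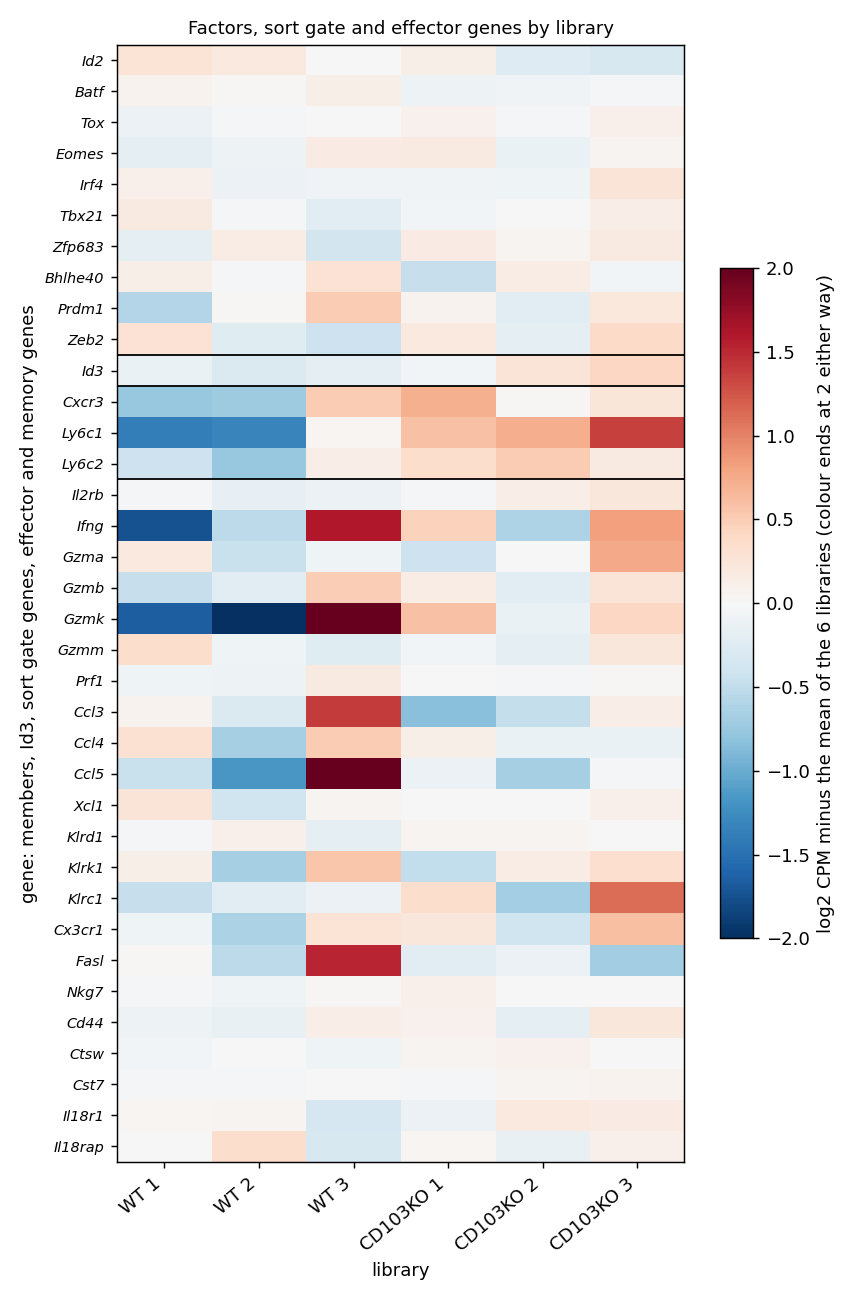
Log2 CPM minus the mean of the 6 libraries for the 10 factors, Id3, the 3 sort gate genes and tested effector and memory genes, with 1 column per library; red is above and blue below the mean of the gene, and colours end at 2 in either direction. The factors are mostly pale, while Ccl5 (34.9 CPM) and Gzmk (2.34 CPM) are deep red in WT replicate 3.

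Upstream signals were also compared. Of 14 T cell receptor activation genes, which include the inducers and early companions of Irf4 and Batf, 0 passed with edgeR, DESeq2 or limma-voom and 0 reached an unadjusted p under 0.05 (median -0.03). The smallest p values were those of Nr4a2, an orphan receptor gene, at 1.81 ± 0.213 and 1.46 ± 0.238 CPM, and of Il2ra, the IL-2 receptor alpha chain, at 3.08 ± 0.514 and 3.74 ± 0.669 CPM (SD, n = 3 each; adjusted p = 0.664 and 0.680, edgeR). Of 15 cytokine receptor and STAT genes, 0 passed with any of the 3 tools, and 1 on each side reached an unadjusted p under 0.05 (median 0.01). Il12rb1, a chain of the IL-12 receptor upstream of T-bet, was at 10.2, 10.1 and 10.1 CPM in WT and 11.7, 11.3 and 11.4 CPM in CD103KO (adjusted p = 0.465, edgeR). Ifngr2, a chain of the interferon gamma receptor, was at 35.7, 32.4 and 33.2 CPM in WT and 28.7, 30.0 and 28.3 CPM in CD103KO (adjusted p = 0.367, edgeR). Neither gene's groups overlapped, which held for 4 of the 15 genes and for 14.2% of all tested genes. Of 7 tested inhibitory receptors, several of which TOX sustains, 0 passed with any of the 3 tools and 0 reached an unadjusted p under 0.05. Cd160 was at 25.9 ± 2.2 and 28 ± 2.54 CPM and Cd244a at 0.310 ± 0.0446 and 0.242 ± 0.0622 CPM (SD, n = 3 each; adjusted p = 0.749 and 0.785, edgeR). The list median was 0.06, and -0.41 with the term for Xist reads, with WT replicate 3 the highest library for 4 of the 7.

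Other cells that express these factors were looked for by their markers. Of 13 myeloid and dendritic cell genes, 3 (Cd14, Fcgr1 and Siglech) were at 0 in the series, 6 were tested and 0 passed with any of the 3 tools or at an unadjusted p under 0.05, with summed levels of 3.85 to 6.69 CPM in WT and 4.24 to 5.38 CPM in CD103KO. Lyz2 was at 1.02 to 2.39 CPM over the 6 libraries and Csf1r at 0.0817 to 0.240 CPM. Of 10 NK and innate-like cell genes, which matter for Tbx21, Eomes, Id2 and Zeb2, 6 were tested and 0 passed with any of the 3 tools or at an unadjusted p under 0.05, with summed levels of 2.97 to 3.70 CPM in WT and 2.41 to 3.61 CPM in CD103KO. Ncr1 was at 0.0940 to 0.267 CPM and Klrb1c at 1.04 to 1.57 CPM. Of 7 CD4 and regulatory T cell genes, 0 passed with edgeR, 1 (Ikzf2, an Ikaros family factor) was higher at an unadjusted p under 0.05 and was also the 1 called by DESeq2, with summed levels of 90.3 to 112 CPM in WT and 111 to 114 CPM in CD103KO. Cd4 itself was at 0.0734 to 0.775 CPM and Zbtb7b at 0.467 to 0.833 CPM.

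Among 10767 tested genes averaging at least 1 CPM over the 6 libraries, those whose log2 CPM most resembled each of the 7 factors above that average were listed as a description. Prdm1, Bhlhe40 and Zeb2 averaged less and were not matched. For Id2 they were Pecr and Ccdc126 (Pearson r of 0.996 for each), for Batf Casp1 (0.992) and Fpgt (0.989), for Tox Parp1 (0.995) and Sh3bp1 (0.989), and for Eomes Iqgap1 (0.991) and mt-Nd4 (0.990). Irf4 was closest to Azin1 (0.993) and Tfip11 (0.981), Tbx21 to Snx16 (0.984) and Slc5a3 (0.980), and Zfp683 to Slk (0.978) and Vav3 (0.976). No gene appeared for more than 1 of the 7 factors, and 0 of these 14 genes passed between the groups with edgeR. The points share their libraries and their depth, and no test was made of these values. The best of 10767 genes over only 6 libraries can reach such an r by selection alone. The pairs are thus not evidence that the genes vary together.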

How the data were processed

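RNA from 6 samples was sequenced as polyadenylated RNA with a stranded ligation kit, per the labels' protocols. The submitters' processing notes name the tools RSEM, STAR 2.7.0f, cutadapt 1.18 and bcl2fastq 2.20, and the builds GRCm38 and mm10. They give no RSEM version, annotation release or strand setting. What the authors deposited is a table of unnormalized expected counts for each gene; 6.48% of values had decimals, and rounding preceded testing. All 55450 identifiers matched GENCODE M21, used for coordinates and exon lengths. Libraries of 1 group differed from each other beyond sampling noise (chi-square per degree of freedom 12.6 to 26.3).

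Groups follow the sample titles. CD103KO was compared with WT in edgeR 4.0.16 (R 4.3.3): filterByExpr (minimum count 10), TMM, quasi-likelihood F test on group, Benjamini-Hochberg over 13470 genes. SEs are the log2 fold change over the square root of F, and 95% intervals use the t distribution of the fit. On simulated counts for these 13470 genes, recovery was 42% for 50 genes changed 1.25-fold, 78% for 1.5-fold and 90% for 2-fold. There were 17 unchanged genes among 172 calls. The data themselves gave 30 calls, so the adjusted p was more lenient in the simulation. Changed genes were drawn above a count floor, and no difference such as that in Xist reads was built in. These recoveries are therefore not those of the 10 factors. Counting error is the inverse square root of the mean count. The factors and lists were chosen with earlier results of these data known. Named genes were all factors, Itgae, of each list the called genes or the 2 of smallest p, the first 2 genes of each marker list, the gate genes, Xist and Ddx3y; Tcf3, Tcf7, Bach2, Cxcr6, Ikzf2, Xbp1, Cd14, Fcgr1, Siglech, Ccl5, Gzmk, Ifng, Fasl and Ccl3, and the overlapping transcripts, were added after their values were seen. Alternatives were other normalizations and filters, DESeq2 1.42.0, limma-voom (limma 3.58.1), unrounded counts, a replicate block, a term for libraries with more than 1 CPM of Xist, an adjusted p of 0.1 and each library left out; a fit of only the 4 libraries without Xist reads and transcript lengths were added after seeing the data. Promoter sequences are RefSeq's, GRCm38.p6. Intervals used SciPy 1.17.1 and plots matplotlib 3.10.9.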

Additional observations from a re-analysis of the deposited data

How the results depend on the processing

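Of the 10 factors, 0 passed under any alternative run, an adjusted p of 0.1 and each library left out included. Over all genes, 30 passed, against 128 with DESeq2, 112 with no filter on low counts, 15 with the term for Xist reads, 13 with only the libraries without them, and 19 to 59 with each library left out (59 without CD103KO replicate 1, 19 without CD103KO replicate 2, 52 without WT replicate 3); the cause was not tested. Id2, Batf, Tox, Zfp683, Bhlhe40 and Zeb2 kept their direction in every alternative that tested them, with ranges of -0.45 to -0.13, -0.19 to -0.12, 0.06 to 0.14, 0.14 to 0.51, -0.38 to -0.08 and 0.12 to 0.56. Tbx21 reversed to -0.02 without CD103KO replicate 3 and -0.05 without WT replicate 3, and Irf4 to -0.06 without CD103KO replicate 3. Eomes reversed to -0.12 with the term for Xist reads and in the libraries without them. Prdm1, at -0.25 to 0.27 with each library left out, reversed to 0.03 with limma-voom, 0.02 with the replicate block, 0.09 without CD103KO replicate 2 and 0.27 without WT replicate 3. The cause of each reversal was not tested. Without WT replicate 3, the WT libraries left were those with Xist reads, and all CD103KO libraries were without them. The pattern of sex and genotype thus cannot be told apart in that fit. This holds for its 52 calls and for its values of Tbx21 (-0.05) and Prdm1 (0.27). Prdm1 and Zeb2 were not tested with a filter of 1 CPM in 3 libraries. Cxcr3 reversed to -0.15 with the term for Xist reads and in the libraries without them. For Eomes and Cxcr3 these fits are in effect the same contrast, CD103KO against WT replicate 3 alone, and not separate checks. Replicate numbers did not pair the libraries: same-numbered deviations correlated at -0.193, 0.003 and -0.056, and 24 genes passed with the replicate block. Depth limits Zeb2, which had 17 to 28 counts per library.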
